A study of Mus musculus with 20 samples.

Results

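Aminoacyl-tRNA synthetases attach each amino acid to its tRNA. The 36 genes described here encode the cytosolic enzymes (20 genes) and the mitochondrial ones (16 genes) and were chosen by symbol, out of 21631 protein-coding genes that lie on the autosomes or on X. All 36 symbols were found in the RefSeq gene table of GRCm38.p6, the assembly that mm10 corresponds to. The binding data are deposited peak lists of ATF4, made by CUT&Tag, in which an antibody directs a transposase to a chromatin protein and the tagged DNA is sequenced. The cells were C2C12, a line of mouse myoblasts, of wild-type genotype, given either DMSO as the vehicle or thapsigargin at 100 nM for 6 h. Thapsigargin blocks the calcium pump of the endoplasmic reticulum and so causes stress in that organelle. Each treatment had 2 ATF4 samples but 1 peak list, so no spread between replicates can be given and no test between treatments was made. The DMSO list held 803 peaks and the thapsigargin list 8619, and the read depth behind them is unknown. A peak list gives no view of muscle marker expression, so the cell type was not checked. The lists hold positions only, so a peak's width is described below and not read as occupancy.

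Synthetases fall into class I and class II, which differ in the fold of the catalytic domain and in the hydroxyl of the tRNA's last ribose that is charged first. In animals some cytosolic synthetases sit together in the multisynthetase complex, held by scaffold proteins, while mitochondrial synthetases are made from nuclear genes and imported. ATF4 is a bZIP transcription factor whose translation rises when eIF2 is phosphorylated, and genes for amino acid uptake, synthesis and tRNA charging are textbook targets. It binds with C/EBP partners to a composite site that joins a C/EBP motif and an ATF motif.

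The composite site was searched as TGATGNAA on both strands in the promoter windows of RefSeq, which span 250 bases before to 50 bases after a gene start. Windows were found for 27 of the 36 members, 13 cytosolic and 14 mitochondrial. The motif was present in 5 members, Aars, Gars, Iars, Tars and Yars, and Aars held 2 copies. Those stretches are shown because all 5 genes carried an ATF4 peak at the start in both lists. Kars and Dars follow as genes with no peak within 50 kb in either list. Most windows lack the motif, since 3.81% of protein-coding genes with no start peak held it. Farsb, Eprs, Mars1 and Sars are not shown, though they had start peaks in both lists and no match in the window. Each line runs 5′ to 3′ on the gene's strand, from 150 bases before the start through the first 20 transcribed bases, with the motif in capitals (build GRCm38.p6, RefSeq). TGATGNAA read on the other strand ends in CATCA.
Aars, chr8:111033692-111033861, plus strand: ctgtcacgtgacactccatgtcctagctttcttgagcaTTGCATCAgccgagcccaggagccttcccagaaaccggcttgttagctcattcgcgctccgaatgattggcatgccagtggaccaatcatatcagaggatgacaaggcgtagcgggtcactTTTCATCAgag
Gars, chr6:55037851-55038020, plus strand: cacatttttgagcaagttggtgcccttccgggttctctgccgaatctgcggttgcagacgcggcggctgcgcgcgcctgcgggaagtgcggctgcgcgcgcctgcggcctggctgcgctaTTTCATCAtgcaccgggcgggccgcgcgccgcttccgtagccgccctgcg
Iars, chr13:49681980-49682149, plus strand: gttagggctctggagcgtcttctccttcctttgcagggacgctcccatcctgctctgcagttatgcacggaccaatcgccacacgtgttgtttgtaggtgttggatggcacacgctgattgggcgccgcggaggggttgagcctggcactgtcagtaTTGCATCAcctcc
Tars, chr15:11399639-11399808, minus strand: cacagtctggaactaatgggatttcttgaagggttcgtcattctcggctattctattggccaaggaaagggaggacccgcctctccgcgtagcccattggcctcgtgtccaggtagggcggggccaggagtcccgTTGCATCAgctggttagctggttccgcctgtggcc
Yars, chr4:129189753-129189922, plus strand: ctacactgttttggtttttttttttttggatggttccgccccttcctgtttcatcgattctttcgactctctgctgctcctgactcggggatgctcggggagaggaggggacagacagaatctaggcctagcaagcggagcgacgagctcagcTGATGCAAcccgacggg
Kars, chr8:112011335-112011504, minus strand: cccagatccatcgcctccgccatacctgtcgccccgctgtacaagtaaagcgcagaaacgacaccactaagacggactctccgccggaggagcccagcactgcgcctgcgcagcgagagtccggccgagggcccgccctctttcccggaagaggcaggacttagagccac
Dars, chr1:128417397-128417566, minus strand: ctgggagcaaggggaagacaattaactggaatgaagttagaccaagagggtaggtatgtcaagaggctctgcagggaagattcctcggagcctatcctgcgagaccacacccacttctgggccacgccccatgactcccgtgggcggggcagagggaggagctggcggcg

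ATF4 peaks lay at the ends of most cytosolic synthetase genes and were there in DMSO already. A gene was counted if the centre of some peak was at most 1 kb from an end given in the gene table. In DMSO 12 of 20 cytosolic genes and 0 of 16 mitochondrial genes were counted, against 1.29% of all protein-coding genes. In thapsigargin the counts were 13 of 20 and 2 of 16, against 15.1% of all protein-coding genes. All 12 cytosolic genes counted in DMSO were counted in thapsigargin too. This held for nearly every gene, since 274 of the 278 protein-coding genes counted in DMSO were counted in both lists (1.27% of all). The mitochondrial share in thapsigargin, 12.5%, thus lay near the background, and the cytosolic shares of 60.0% and 65.0% did not. The difference between compartments was not tested.

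Aars, Eprs and Wars2 also had a peak at their start that the gene ends missed, because the table's ends reach beyond the RefSeq start of the promoter table. By the end rule these peaks were body peaks, in 2 members in DMSO and 3 in thapsigargin. Of all protein-coding genes 1.29% had a DMSO peak and 8.3% a thapsigargin peak in the body and none at an end. The start of Aars lies 6064 bp inside the gene as tabulated, that of Eprs 1627 bp and that of Wars2 983 bp. Counting a centre at most 1 kb from a gene end or from a RefSeq start, the cytosolic counts became 14 of 20 in DMSO and 15 of 20 in thapsigargin, beside 1.4% and 16.5% of all protein-coding genes. The mitochondrial counts became 0 of 16 and 3 of 16. This second rule was chosen after the positions had been seen, and the groups below are counted by it.

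**Figure D1:**
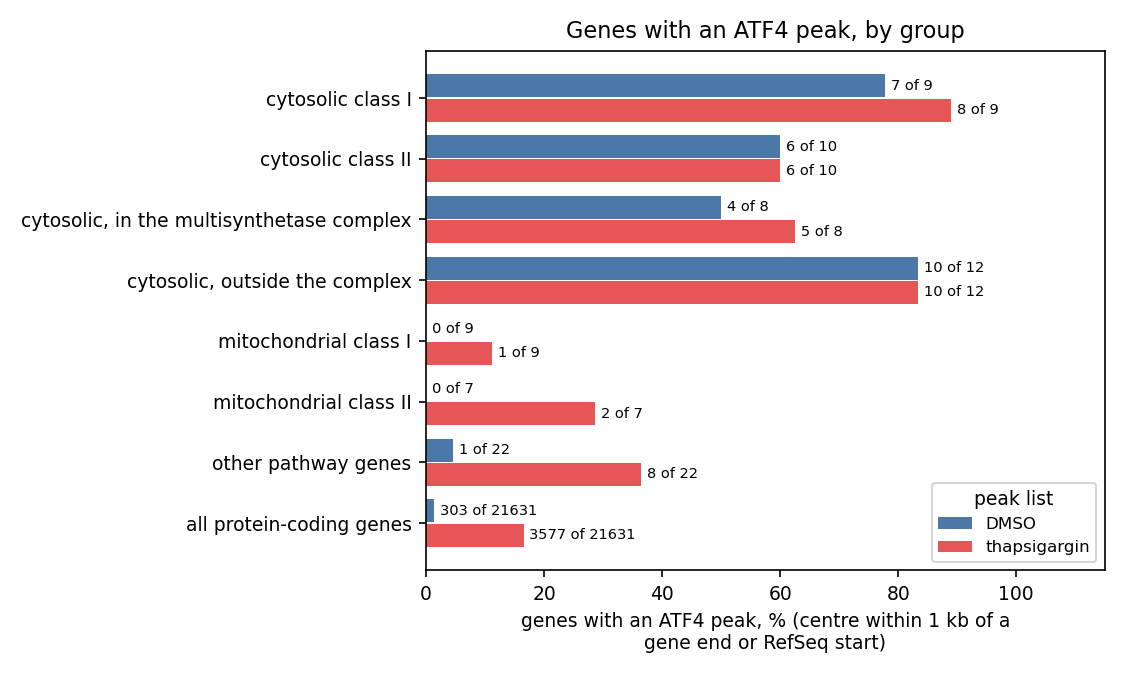
Percentage of genes whose ends or RefSeq start have the centre of an ATF4 peak at most 1 kb away (x axis) in each gene group (y axis), for the DMSO list (blue) and the thapsigargin list (red), with the counts beside the bars. Cytosolic groups range from 4 of 8 to 10 of 12 in DMSO, while both mitochondrial groups are at 0 there; the 8 genes of the complex and the 12 outside it are the same 20 genes as the cytosolic classes plus Eprs.

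By class, 7 of 9 cytosolic class I genes were counted in DMSO and 8 of 9 in thapsigargin. Of all protein-coding genes 1.4% and 16.5% were. Of the cytosolic class II genes 6 of 10 were counted in each list. Eprs, which joins a class I glutamate enzyme to a class II proline enzyme, was counted in neither class. Among mitochondrial genes 1 of 9 of class I (Wars2) and 2 of 7 of class II (Fars2, Nars2) were counted in thapsigargin. These are 11.1% and 28.6%, on either side of the 16.5%, and rest on few genes. The cytosolic class I count in thapsigargin includes Qars, whose peak lay at the far end from its start. Without a test, these counts do not show that the classes differ.

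By complex, 4 of 8 genes of the multisynthetase complex were counted in DMSO (Eprs, Iars, Lars and Mars1) and 5 of 8 in thapsigargin, when Qars was added. The shares of all protein-coding genes were 1.4% and 16.5%. Dars, Kars and Rars of the same complex had no peak at a gene end or start in either list. Outside the complex 10 of 12 cytosolic genes were counted in both lists, and the exceptions were Farsa and Hars. Farsa and Farsb encode the subunits of a single enzyme, phenylalanyl-tRNA synthetase, and Farsb alone had a start peak. Gars and Kars each encode both the cytosolic and the mitochondrial enzyme of their amino acid, and they also differed: Gars had a peak in both lists and Kars in neither.

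The class I genes outside the complex all had a peak in both lists. At Vars, the gene for the valine enzyme on chromosome 17, the peak ran from 35001041 to 35002747 in DMSO (1707 bp) and from 35000891 to 35002896 in thapsigargin (2006 bp). It was centred 987 bp inside the gene end in DMSO and 986.5 bp in thapsigargin, just within the limit. At Cars, the gene for the cysteine enzyme on chromosome 7, it ran from 143599157 to 143600239 (1083 bp) and from 143599042 to 143600239 (1198 bp), so that both lists gave the same outer edge. At Wars, the gene for the tryptophan enzyme on chromosome 12, it ran from 108893007 to 108894156 (1150 bp) and from 108892894 to 108894258 (1365 bp). This peak also lay near an end of the neighbour Wdr25. At Yars, the gene for the tyrosine enzyme on chromosome 4, it ran from 129189667 to 129190967 (1301 bp) and from 129189650 to 129190979 (1330 bp) and lay near an end of S100pbp too. Yars had a further thapsigargin peak inside the gene, 14.5 kb from its nearer end, and none there in DMSO.

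In the complex, Mars1 for methionine had the widest DMSO peak of the family. On chromosome 10 it ran from 127310527 to 127312453 in DMSO (1927 bp) and from 127310419 to 127312487 in thapsigargin (2069 bp), and it was sixth in width among all DMSO peaks. The opposite end of Mars1 adjoins Ddit3, the gene of the stress factor CHOP, and a peak near the ends of both Ddit3 and Mbd6 was centred 5.99 kb from Mars1 in DMSO and 5.76 kb in thapsigargin. The Mars1 start thus carried a peak apart from that one. At Iars, the gene for the isoleucine enzyme on chromosome 13, the peak ran from 49681608 to 49683014 in DMSO (1407 bp) and from 49681455 to 49683071 in thapsigargin (1617 bp). At Lars, the gene for the leucine enzyme on chromosome 18, it ran from 42261643 to 42262533 (891 bp) and from 42261326 to 42262713 (1388 bp). At Eprs on chromosome 1 it ran from 185362963 to 185364114 (1152 bp) and from 185362696 to 185364216 (1521 bp). Lars and Eprs thus widened more than Iars and Mars1. Qars, for glutamine, on chromosome 9, had a peak in thapsigargin alone, from 108516526 to 108517294 (769 bp). It was centred 969 bp beyond the far end of the gene and 8905 bp from its start, and it lay near an end of Qrich1.

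Among cytosolic class II genes the Gars peak, for the glycine enzyme, was the widest in DMSO. On chromosome 6 it ran from 55037510 to 55039315 in DMSO (1806 bp) and from 55037401 to 55039369 in thapsigargin (1969 bp). At Sars, the gene for the serine enzyme on chromosome 3, the DMSO peak ran from 108443523 to 108445209 (1687 bp) and stopped short of the start. The thapsigargin peak ran from 108443423 to 108445528 (2106 bp) and covered it. Sars also had a thapsigargin peak of 1446 bp at its other end, from 108423940 to 108425385, with no DMSO counterpart. At Aars, the gene for the alanine enzyme on chromosome 8, the peak ran from 111033051 to 111034494 (1444 bp) and from 111033087 to 111034549 (1463 bp). Its centre was the only one of the family that lay before the start, by 69.5 bp in DMSO and 24 bp in thapsigargin. At Tars, the gene for the threonine enzyme on chromosome 15, the peak ran from 11398877 to 11400089 (1213 bp) and from 11398703 to 11400283 (1581 bp). At Nars, the gene for the asparagine enzyme on chromosome 18, it ran from 64515713 to 64516803 (1091 bp) and from 64515765 to 64517062 (1298 bp). The Farsb peak on chromosome 1 was the narrowest of the family in DMSO, from 78488271 to 78489094 (824 bp), and ran from 78488138 to 78489539 in thapsigargin (1402 bp).

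**Figure D2:**
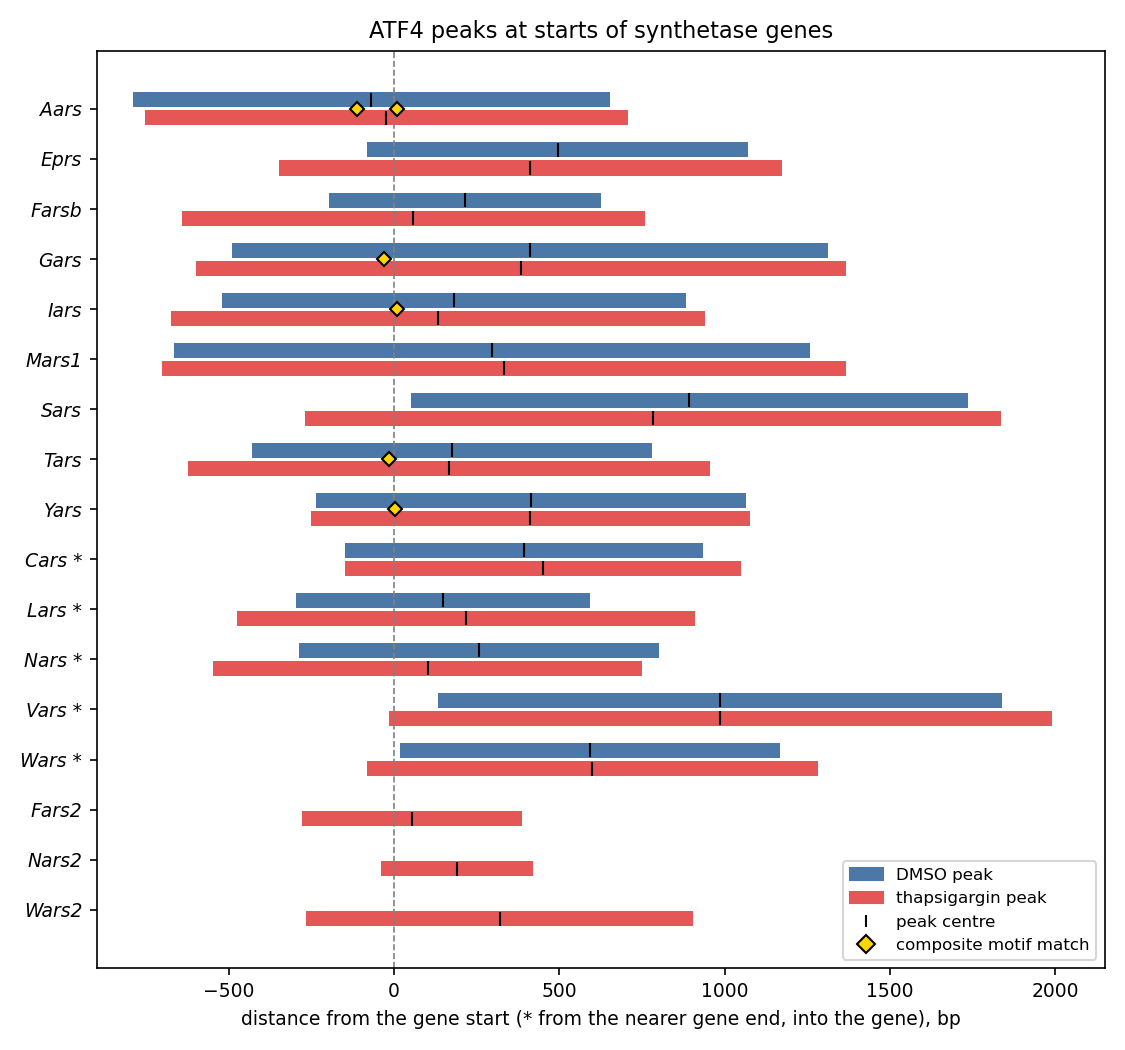
Extent of the ATF4 peaks (bars; ticks mark centres) in the DMSO list (blue) and the thapsigargin list (red) relative to the gene start, in bp along the gene on the x axis; for the 5 genes with an asterisk no RefSeq start was matched and the nearer gene end is at 0. All 14 cytosolic genes have bars from both lists and the 3 mitochondrial genes from thapsigargin alone. Composite motif matches (diamonds) were searched only from 250 bases before to 50 bases after a gene start.

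The centres lay on the transcribed side. Of the 9 members with a RefSeq start and a DMSO peak within 1 kb of it, 8 had the centre after the start, with a median of 296 bp, and Aars was the exception. Of 230 other protein-coding genes with such a peak 49.6% had the centre after the start. In thapsigargin 11 of 12 members had the centre after the start, with a median of 254 bp, beside 49.8% of 2816 other genes. The DMSO peak covered the start or, where none was matched, the gene end in 11 of 14 genes, Sars, Vars and Wars being the exceptions, and the thapsigargin peak covered it in all 14.

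At most of these genes the DMSO and thapsigargin peaks were closer in width than in the median pair of the lists. All 14 DMSO peaks at cytosolic starts or ends overlapped a thapsigargin peak, and 12 lay wholly inside it, while Aars and Nars were covered to 97.5% and 95.2%. The thapsigargin peak was the wider in all 14 pairs, by 19 bp at Aars to 578 bp at Farsb. These counts were near those of the whole list, where 799 of 803 DMSO peaks overlapped a thapsigargin peak. In the 785 other pairs 694 DMSO peaks lay wholly inside, and the thapsigargin peak was the wider in 765. The ratio of the widths had a median of 1.18 and ran from 1.01 at Aars and 1.02 at Yars to 1.56 at Lars and 1.7 at Farsb. The other 785 overlapping pairs of the lists had a median ratio of 1.56, and the 243 of them at other gene ends or starts 1.55. Centres lay a median of 46.8 bp apart at the synthetases and 98 bp apart in the other pairs.

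The small ratio went with wide DMSO peaks rather than with narrow thapsigargin peaks. It was not compared with other pairs of like DMSO width, so it is not shown to be particular to these genes. The synthetase peaks had a median width of 1257 bp in DMSO, against 851 bp in the other pairs, and of 1492 bp in thapsigargin, against 1375 bp. In rank by width, 13 of the 14 synthetase peaks were among the 401 widest DMSO peaks and 4 among the 20 widest, namely Mars1, Gars, Vars and Sars. Farsb was the exception, at the 47.1 percentile. Width also depends on depth and on the threshold of the peak caller, whose part in these ratios was not tested.

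**Figure D3:**
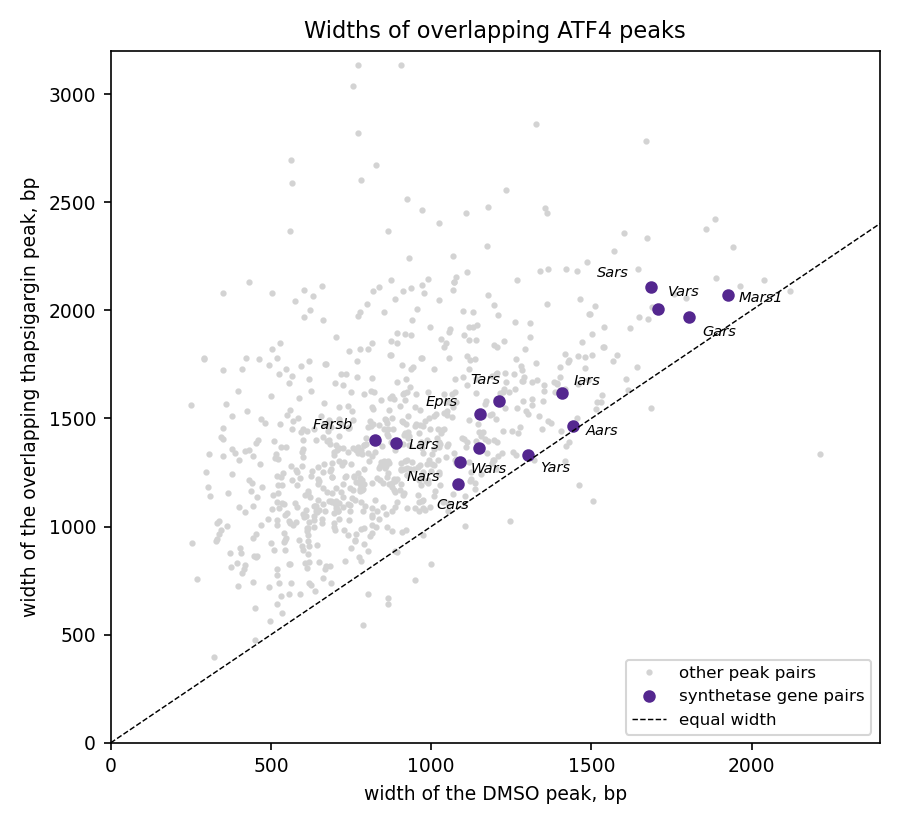
Width of each DMSO peak (x axis, bp) against the thapsigargin peak that overlaps it (y axis, bp) for 14 synthetase pairs (purple, named) and 785 other pairs (grey); the dashed line marks equal width. The synthetase pairs lie close above the line, at a median ratio of 1.18, with Farsb and Lars farthest from it.

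Of the 16 mitochondrial synthetases 3 (18.8%) had a start peak in thapsigargin, near the 16.5% of all protein-coding genes with one at an end or start. All 3 had it in thapsigargin alone, as did 3277 of those 3577 protein-coding genes. Fars2, for phenylalanine, on chromosome 13, had a peak from 36117363 to 36118030 (668 bp), centred 53.5 bp after the RefSeq start. It lay near an end of Lyrm4 as well, so it cannot be assigned to either gene. The same holds for the peaks at Wars, Yars and Qars described above, which also lay near an end of a neighbour. Nars2, for asparagine, on chromosome 7, had a peak from 96951486 to 96951946 (461 bp), centred 189 bp after the start. Wars2, for tryptophan, on chromosome 3, had a peak from 99140824 to 99141994 (1171 bp), centred 319 bp after it. The Nars2 and Fars2 peaks were among the narrow ones of the list, at the 3.21 and 14 percentiles of width. The 14 shared peaks at cytosolic genes were 1198 bp to 2106 bp wide, so all 3 mitochondrial peaks were narrower than every one of them. The Wars2 peak was at the 63.1 percentile, above the median of 1032 bp for the 3038 thapsigargin peaks at other gene ends or starts. Peaks shared by both lists were wide at other genes too, with a median of 1375 bp in thapsigargin. Fars2 had a further thapsigargin peak within the gene, 103 kb from its nearer end.

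For 16 amino acids both a cytosolic and a mitochondrial gene were members, with Eprs as the cytosolic gene of both glutamate and proline. In thapsigargin a peak stood at a start or end of the cytosolic gene alone for 11 of them, at both genes for asparagine, phenylalanine and tryptophan, and at neither for arginine and histidine. No amino acid had a peak at the mitochondrial gene alone. Only arginine and histidine lacked a peak at the cytosolic gene, so few amino acids could have shown this. The mitochondrial share of 18.8% was near the 16.5% of all protein-coding genes. The counts are therefore not read as a link between the genes of a pair. Hars and Hars2, the histidine pair, adjoin end to end on chromosome 18 and had no peak at either. Their nearest thapsigargin peak lay 21.9 kb from Hars, at the ends of Ik and Ndufa2.

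The remaining cytosolic genes had their nearest peaks at a distance. In thapsigargin these lay 10.1 kb from Farsa, where the peak was at an end of Calr, a chaperone gene of the endoplasmic reticulum, and 38.7 kb from Rars, where it was at an end of Pank3. Kars and Dars had none within 50 kb and the nearest were 52.8 kb and 55.1 kb away. In DMSO only Hars of these had a peak within 50 kb, at 31.3 kb and at an end of Tmco6.

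Of the remaining mitochondrial genes 9 had a thapsigargin peak within 50 kb, from 6.95 kb at Cars2 through 10.9 kb at Lars2, 12.5 kb at Sars2 and 13.6 kb at Tars2 to 49.1 kb at Yars2. Vars2, Iars2, Pars2 and Hars2 lay between, at 27.6 kb, 34 kb, 36.8 kb and 38.6 kb. The peak nearest to Iars2, in both lists, was the start peak of its chromosomal neighbour Eprs. None lay within 50 kb of Aars2, Ears2, Mars2 and Rars2, with the nearest at 52.1 kb from Aars2, 63.7 kb from Rars2, 106 kb from Mars2 and 987 kb from Ears2. In all, 12 of 16 mitochondrial and 18 of 20 cytosolic genes had a thapsigargin peak in the gene or within 50 kb, beside 51.1% of all protein-coding genes. For DMSO peaks the counts were 2 and 15, beside 8.01%. A DMSO peak in the gene or within 50 kb, with none at a gene end, was found for 5 of 36 members (13.9%), beside 6.73% of all protein-coding genes. For thapsigargin it was 15 of 36 (41.7%), beside 36%. Among genes with no thapsigargin peak at an end, these were 15 of 21 members (71.4%) and 7788 of 18364 protein-coding genes (42.4%). These counts went by gene ends alone, so they include the start peaks of Aars and Eprs and, in thapsigargin, of Wars2. Hars and Hars2 were counted through the same peaks, and Iars2 through the start peak of Eprs. The members are thus not separate instances of distant peaks.

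**Figure D4:**
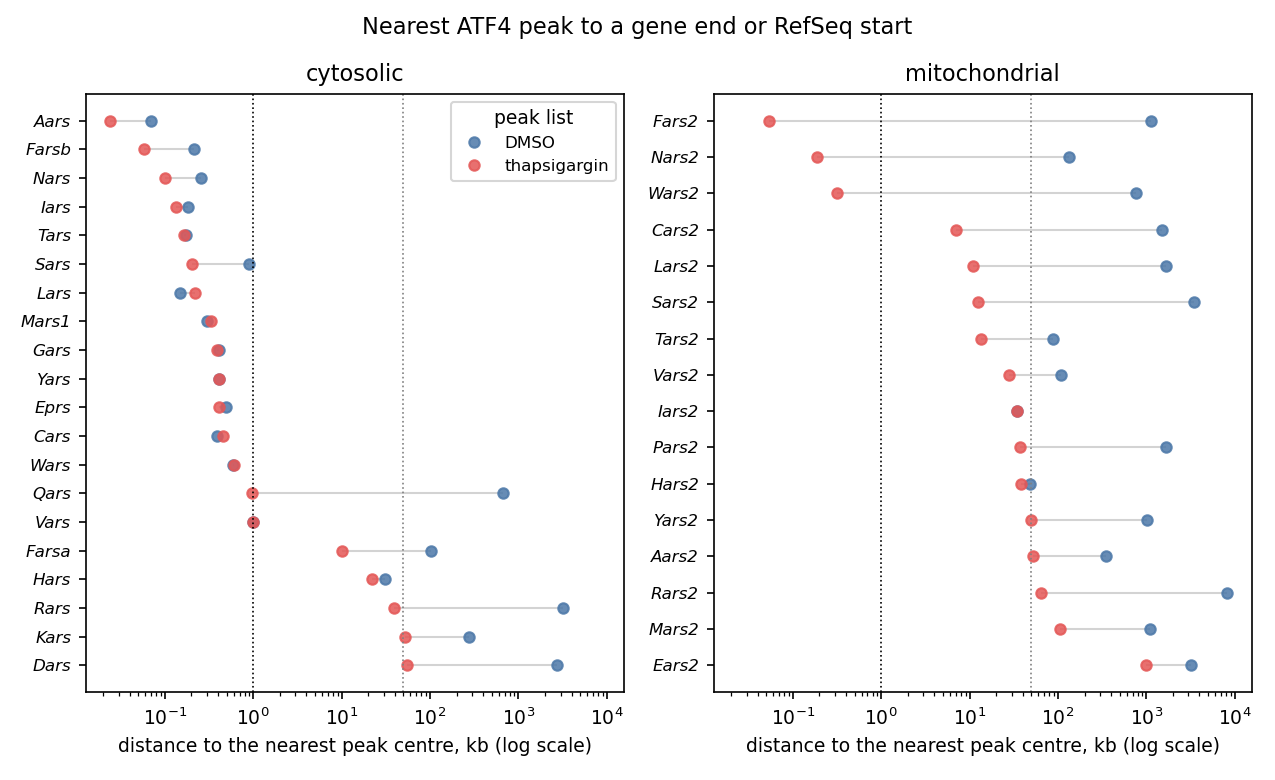
Distance from a gene end or RefSeq start to the nearest peak centre (x axis, kb, log scale) for the 20 cytosolic (left) and 16 mitochondrial genes (right) in the DMSO list (blue) and the thapsigargin list (red); dotted lines mark 1 kb and 50 kb. At 14 cytosolic genes both points lie within 1 kb. At cytosolic Qars and at mitochondrial Fars2, Nars2 and Wars2 the thapsigargin point alone does.

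The composite motif in the stretches printed above was set against other promoters. TGATGNAA was found in 5 of 13 cytosolic windows, 0 of 14 mitochondrial genes and 3.87% of all 32619 promoter windows on the chromosomes studied. Of the 9 cytosolic genes with a start peak in both lists and a window, 5 held it (55.6%), and of the 4 with no start peak none did. Among all protein-coding genes, the synthetases included, it was found in 51 of 236 with a start peak in both lists (21.6%), 81 of 2592 with a start peak in thapsigargin alone (3.12%) and 551 of 14443 with none (3.81%). The lack of a match in the 14 mitochondrial genes and in the 4 cytosolic genes with no start peak was close to these low shares. A match is a run of letters and not a measured site.

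The letters of the matches were alike. Aars, Iars, Tars and Yars each held TGATGCAA, in Yars on the gene's own strand and in the others on the opposite strand. Gars, and Aars in its second copy, held TGATGAAA on the opposite strand. The match began 112 bases before the start and at base 10 in Aars, 30 bases before the start in Gars and 15 bases before it in Tars, and at base 8 in Iars and base 4 in Yars, counted from the first transcribed base. Each lay inside the peak in both lists. The search nearly fixed this, since the window of 300 bases lay wholly inside these peaks, save for Yars in DMSO (286 bases). The distance of the matches from the thapsigargin peak centre was 36.5 bp and 84.5 bp in Aars, 122.5 bp in Iars and 176.5 bp in Tars. It was 405 bp in Yars and 410.5 bp in Gars.

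The windows covered between 0% (Sars) and 30% of the DMSO start peaks and between 14.2% and 44.9% of the thapsigargin start peaks, so most of each peak was not searched. Farsb, Eprs, Mars1 and Sars had start peaks and no composite match in the window. The other motifs searched were the cAMP response element TGACGTCA, the AP-1 site TGANTCA and the C/EBP site TTGCNNAA, which can share bases with the composite site. TGACGTCA was in no member, TGANTCA in Qars alone, and TTGCNNAA in Gars, Qars and Rars2, beside 1.8%, 7.85% and 10.9% of all windows. The median GC content was 56% in cytosolic, 58% in mitochondrial and 56.7% in all protein-coding windows.

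**Figure D5:**
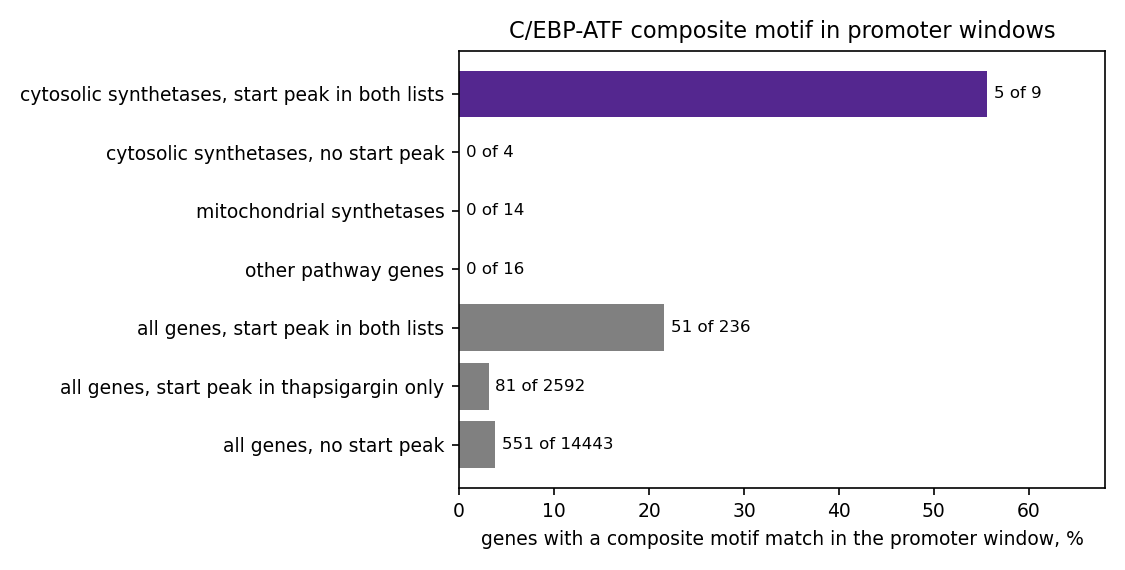
Percentage of genes whose promoter window holds TGATGNAA on either strand (x axis) for synthetases and other tRNA pathway genes (purple) and all protein-coding genes (grey), split by start peak (y axis), with counts beside the bars. Of the sets shown, 5 of 9 cytosolic synthetases with a start peak in both lists hold it, 51 of 236 protein-coding genes of that kind do, and no gene of the other 3 purple sets.

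Of 22 other genes that serve tRNA charging, 14 had no ATF4 peak at a gene end in either list. Thapsigargin peaks were found at the ends of 8 (36.4%), beside 15.1% of all protein-coding genes, and a DMSO peak at 1 (4.55%), beside 1.29%. The DMSO peak had a thapsigargin counterpart, so 7 were marked in thapsigargin alone, as were 3277 of the 3577 protein-coding genes with a thapsigargin peak at an end or start. The gene with peaks in both lists was Xpot, the exporter of tRNA from the nucleus, with 746 bp in DMSO and 1101 bp in thapsigargin. The scaffold genes of the multisynthetase complex Aimp1 (894 bp) and Aimp2 (462 bp) had a thapsigargin peak, each also within 1 kb of an end of a neighbour, Tbck and Pms2. The third scaffold gene, Eef1e1, had none at its ends. Gatb and Gatc, subunits of the mitochondrial amidotransferase that makes glutaminyl-tRNA, had peaks of 700 bp and 834 bp, the latter shared with Triap1. Trnt1, which adds the CCA end, had 848 bp, Pstk, a kinase of the selenocysteine pathway, 565 bp, and Tsen34, a subunit of the tRNA splicing endonuclease, 1768 bp, shared with Mboat7. No peak lay at an end of the remaining 14, among them Qrsl1, Mtfmt, the editing genes Aarsd1, Dtd1 and Dtd2, and Rtcb.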

How the data were processed

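The deposited files hold, per treatment, the chromosome, start and end of each ATF4 peak, with no height, score, summit or p-value. These positions (other values, in bp) are the authors' own, as deposited. Per the submitters' processing notes the build was mm10 and the tools were MACS2 2.2.7.1, Bowtie2 and Trim Galore 0.6.10, with no settings. How 2 replicates became 1 list, which threshold defined a peak and whether a control was used is not given in the sources used here. Nothing in the labels says whether replicates were separate cultures. Of the 20 samples in 10 groups, the 8 groups other than ATF4 were not used here.

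Genes and promoter windows came from RefSeq tables of GRCm38.p6, and printed coordinates count from 1. The gene table has no strand. RefSeq starts were matched for 27 members, and not for Cars, Hars, Lars, Nars, Rars, Vars, Wars, Hars2 and Pars2. Overlap means at least 1 bp shared. Peaks and genes are not replicates, so counts were set beside those over all protein-coding genes, with no test. By the rule for named genes all members were accounted for, and those with a peak at a gene end were given with position and width. Class and complex groups were set from textbook knowledge. The members and lists were chosen with earlier results of these data known. Alternatives were windows of 500 bp, 2 kb and 5 kb, a peak covering the gene end, peaks of at least the median width of their list, equal numbers of peaks, gene starts only, the nearest gene only and other overlap rules. The counting and the motif search were tested on simulated data. Python 3.11.15, numpy 2.4.6, pandas 2.3.3 and matplotlib 3.10.9 were used.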

Additional observations from a re-analysis of the deposited data

How the results depend on the processing

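No paired analysis was possible because the 2 samples of each treatment stand behind 1 list, which also prevents leaving out a replicate. Of 77 alternative counts 65 stayed within 1.5 times the count by gene ends alone. The 77 include the counts by gene end or RefSeq start, which is the rule used above for the groups. The counts by complex were not varied. Some of the 65 could not move, so that number overstates stability. Equal numbers of peaks leave the DMSO list as it is, and stricter rules cannot lower the mitochondrial DMSO count of 0. With only as many thapsigargin peaks as DMSO peaks, the widest ones, the thapsigargin counts were 4 of 20 cytosolic genes, 2 of 9 class I, 2 of 10 class II and 0 of 16 mitochondrial genes, beside 1.32% of all protein-coding genes. The mitochondrial count in thapsigargin was 1 with a window of 500 bp or with the peak covering a gene end, beside 12.5% and 12.4% of all protein-coding genes. It was 0 among peaks of at least the median width, beside 7.56%. A window of 500 bp gave 4 of 9 cytosolic class I genes in both lists, where 8 were counted in thapsigargin and 7 in DMSO. The shares of all protein-coding genes with that window were 12.5% in thapsigargin and 0.962% in DMSO. With each peak given only to its nearest gene, 11 of 20 cytosolic genes and 6 of 9 of cytosolic class I were counted in both lists. The shares of all protein-coding genes were then 12.6% in thapsigargin and 1.09% in DMSO. Gene starts alone gave, in both lists, 3 of the 4 cytosolic class I genes that have a RefSeq start, beside 16.4% of all genes in thapsigargin and 1.38% in DMSO. Within 20 kb, 8 members without a peak at a gene end had a thapsigargin peak, against 15 within 50 kb. The share over all protein-coding genes within 20 kb is not given here. The count by gene end or RefSeq start was added after the data had been seen. Depth is unknown, so the lack of a peak does not show the lack of binding.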
